A study of Rattus norvegicus with 6 samples.

Results

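The genes described here are the enzymes that break down amino acids in the kidney, together with those that handle the ammonia, creatine and betaine linked to that breakdown. They are 42 genes chosen by name. A probe belonged to a gene where its RefSeq accession, without version, mapped to the gene's current rat symbol, which for Mut is Mmut. The array carried 44 probes for 39 of the 42 genes, out of 30367 probes in all. Gldc, Shmt1 and Mut had no named probe. The probe of Sardh was well above background on 1 of 3 diabetic and 2 of 3 Bailing Capsule arrays and was left out, so 38 genes were tested among 17892 features.

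Kidney RNA from rats was measured on 6 single-colour Agilent arrays. The diabetic group held 3 samples, labelled only as diabetic and 21 weeks. The other group held 3 samples from rats of 21 weeks given Bailing Capsule, a preparation of fermented Cordyceps mycelium. The labels used here give no dose, strain, sex or way of inducing diabetes, and do not say whether the treated rats were diabetic. The series asks how the capsule changes renal gene expression.

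Signals are given as log2 of the processed spot intensity minus the 75th percentile of that array, so 0 is the signal at that percentile. A difference is the Bailing Capsule mean minus the diabetic mean, and a fold is 2 to the power of its size. A gene was called, and is said to have risen or fallen, where limma's moderated test gave a Benjamini-Hochberg adjusted p under 0.05 over all 17892 features. Nothing in the labels says how the samples of a group were collected, or whether each came from a separate rat. The p-values here reflect how far these samples scatter, in part perhaps technically. Arrays whose file headers held the same scan identifier were taken to share a slide, since the labels used here name none. This gave 2 slides, with diabetic replicate 1 on slide 1 beside the whole Bailing Capsule group. Slide 2 held diabetic arrays only, so a fit with slide as a block compares diabetic replicate 1 alone with the Bailing Capsule group. All 16 proximal tubule markers examined, among them Lrp2, Slc34a1 and Slc5a2, were well above background on all 6 arrays. The arrays correlated pairwise at 0.966 to 0.992 over all features.

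The proximal tubule takes filtered amino acids back from the urine and is itself a site of their breakdown. It oxidises proline and hydroxyproline, makes arginine from citrulline, forms the creatine precursor guanidinoacetate, and releases ammonia from glutamine for acid excretion. Betaine, formed from choline, gives a methyl group to homocysteine. The remaining dimethylglycine is stripped of its methyl groups through sarcosine to glycine, which feeds the folate pool.

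The promoters of the 3 genes with the lowest p-values, Pipox, Bhmt and Kmo, are shown with that of Agxt2. All of them held CAAAGTCCA or CAAAGGTCA, short motifs that few rat promoters hold, and were chosen for that. Each sequence is the 250 bases before the annotated start, taken from RefSeq on build GRCr8 and written 5′ to 3′ on the gene's own strand. Pipox is at chr10:63280440-63280689 on the minus strand, Bhmt at chr2:26614430-26614679 on the minus strand, Kmo at chr13:90089271-90089520 on the plus strand and Agxt2 at chr2:61063166-61063415 on the plus strand. Capitals mark matches, on either strand, to CAAAGTCCA, a sequence of the kind bound by the hepatocyte nuclear factor HNF4, to CAAAGGTCA, of the kind bound by nuclear receptor dimers, and to the TATA box TATAAA.
Pipox: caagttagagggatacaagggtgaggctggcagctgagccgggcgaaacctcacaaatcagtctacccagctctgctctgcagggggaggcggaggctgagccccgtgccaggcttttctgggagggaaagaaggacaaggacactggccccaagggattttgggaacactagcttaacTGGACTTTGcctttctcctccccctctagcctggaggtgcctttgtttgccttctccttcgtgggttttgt
Bhmt: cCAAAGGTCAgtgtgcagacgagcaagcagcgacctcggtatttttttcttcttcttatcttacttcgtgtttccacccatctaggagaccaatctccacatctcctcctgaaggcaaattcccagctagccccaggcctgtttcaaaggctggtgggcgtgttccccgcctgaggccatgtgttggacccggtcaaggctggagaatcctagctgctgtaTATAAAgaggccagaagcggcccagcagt
Kmo: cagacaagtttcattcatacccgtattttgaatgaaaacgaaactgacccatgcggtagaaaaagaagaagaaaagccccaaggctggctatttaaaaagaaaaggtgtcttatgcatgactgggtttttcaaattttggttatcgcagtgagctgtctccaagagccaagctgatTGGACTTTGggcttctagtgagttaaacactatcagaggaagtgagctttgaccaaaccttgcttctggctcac
Agxt2: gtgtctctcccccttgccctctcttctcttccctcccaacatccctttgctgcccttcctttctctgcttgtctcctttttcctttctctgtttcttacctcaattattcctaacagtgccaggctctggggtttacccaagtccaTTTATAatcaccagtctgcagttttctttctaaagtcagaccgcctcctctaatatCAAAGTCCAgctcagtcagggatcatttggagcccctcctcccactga

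The match to CAAAGTCCA lay 71 to 63 bases before the start in Pipox and 74 to 66 bases before it in Kmo, both on the opposite strand. In Agxt2 it lay at 48 to 40 bases. Bhmt held CAAAGGTCA at 249 to 241 bases and TATAAA at 29 to 24 bases before the start, and Agxt2 held TATAAA on the opposite strand at 104 to 99 bases. Promoter sequences were found for 36 of the 42 genes, and 4 of these, or 11.1%, held either of the first motifs. Of all 33469 rat promoters of the same length 238 did, or 0.711%. Of the promoters found for 54 other genes of amino acid metabolism 0 did. These 54 include genes not tested on the arrays, such as Tat and Aldh7a1, and so are not the 54 tested genes described below. For each listed gene the first promoter entry was read, whereas the 33469 count every entry. TATAAA was in 16.7% of the 36 promoters and in 12.9% of all. These motifs were picked after these promoters had been read, so the shares are descriptions and were not tested. Agxt2, which holds CAAAGTCCA as Pipox and Kmo do, had a difference of -0.24.

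Pipox fell in Bailing Capsule kidneys, and it was the only 1 of the 38 tested genes to be called. Bhmt and Kmo were also lower on every Bailing Capsule array than on any diabetic array, but did not pass over all features. The other 35 genes had an unadjusted p above 0.05, with differences between -0.60 for Arg2 and 0.48 for Ass1. Of all features 0.319% were called, and 0.19% were called lower, so 1 of 38 is a small count on a small base. Unadjusted p-values under 0.05 were found for 3 of the 38 genes, or 7.89%, against 7.55% of all features; all 3 were lower, as were 4.54% of all features. Groups that did not overlap were found for 3 genes, again 7.89%, against 11.6% of all features and 7.06% for lower alone. By these counts the genes of amino acid breakdown differed between the groups about as often as any feature on the array.

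**Figure D1:**
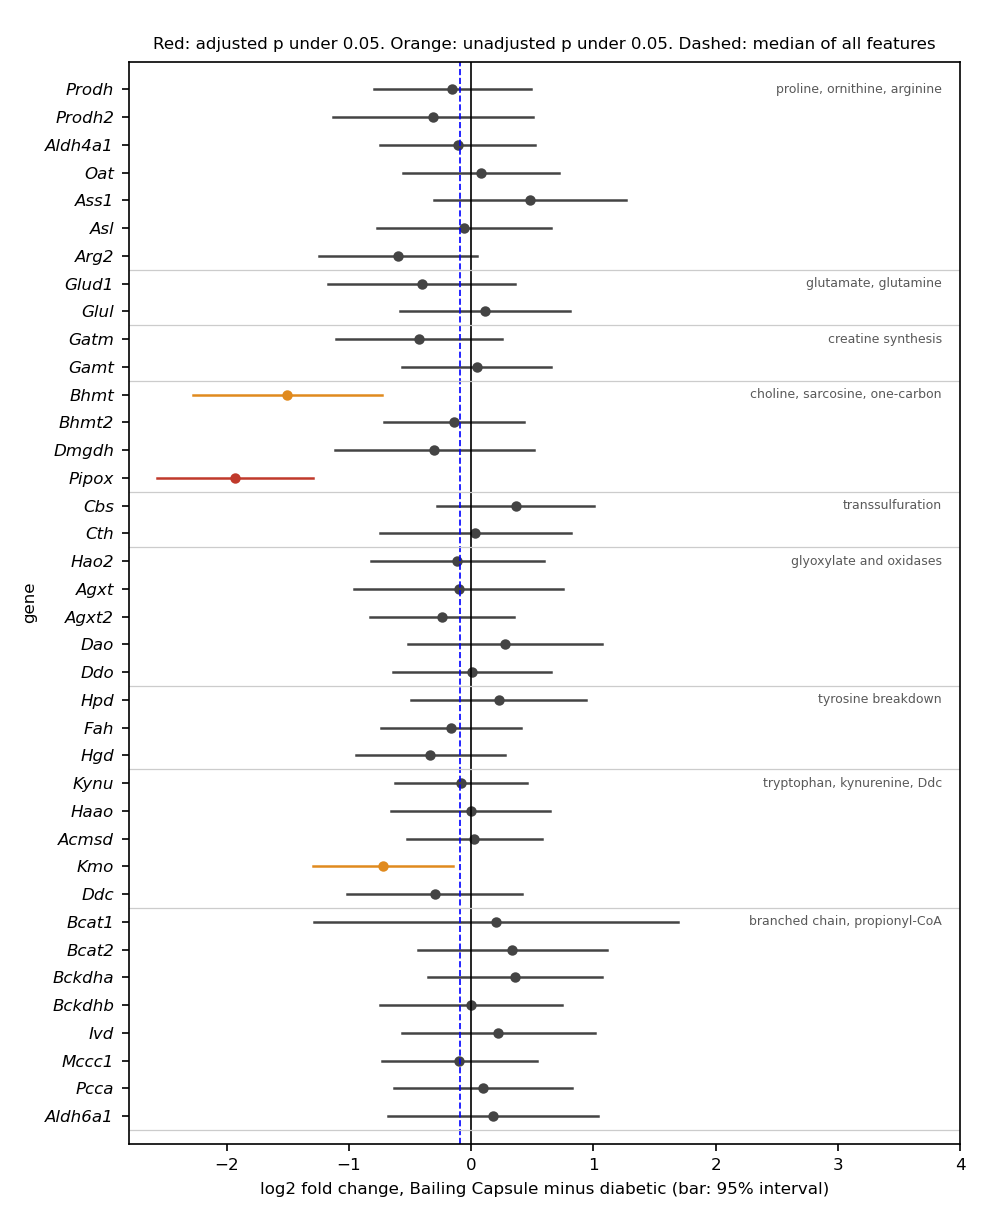
Difference between the groups for the 38 tested genes, in log2 units (Bailing Capsule minus diabetic, horizontal axis), ordered by pathway. Points are limma estimates and bars their 95% intervals, unadjusted; Pipox (red) was called, Bhmt and Kmo (orange) had an unadjusted p under 0.05, and the bars of the other 35 genes cross 0.

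The median difference of the 38 genes was -0.07, beside -0.09 for all features. Of the 38, 22 had negative values in this scaling, 14 after quantile normalization and 11 in the authors' deposited values, so no common direction can be given. Of all features 62.1%, 55.6% and 48.9% had negative values in these scalings. The 95% interval lay within 1 log2 unit of 0 on both sides for 21 of the 38 genes. For the remaining genes, Pipox, Bhmt and Kmo included, a change of 2-fold or more was within the interval or at the estimate.

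Betaine is handled by Bhmt, dimethylglycine by Dmgdh and sarcosine by Sardh or Pipox, and this group held both of the largest differences. Pipox encodes the peroxisomal oxidase of sarcosine and pipecolic acid, the latter an intermediate of lysine breakdown. Its signals (probe A_64_P004307, NM_001012009) were 1.41, 1.09 and 1.13 in diabetic replicates 1 to 3 and -0.25, -1.12 and -0.79 in Bailing Capsule replicates 1 to 3. The lowest diabetic array was thus 1.33 log2 units above the highest Bailing Capsule array. The mean went from 1.21 ± 0.18 to -0.72 ± 0.44 (SD, n = 3), a 3.82-fold fall with a log2 difference of -1.93 (SE 0.29, limma adjusted p = 0.0234). Diabetic replicate 1 shared a slide with the Bailing Capsule arrays. With slide as a block the difference rested on that diabetic array alone and was -2.13 (limma adjusted p = 0.0797). The call was also lost without diabetic replicate 2 or 3 and without Bailing Capsule replicate 2 or 3, at -1.99, -1.97, -1.73 and -1.90, with limma adjusted p-values of 0.0849 to 0.114.

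Bhmt encodes betaine-homocysteine methyltransferase, which remakes methionine. Its probe gave 7.14, 8.01 and 6.95 in diabetic kidneys and 6.36, 5.75 and 5.47 in Bailing Capsule kidneys. Every diabetic value lay above every Bailing Capsule value, with the widest spread in the diabetic group coming from replicate 2. The difference was -1.50 (SE 0.35), or 2.84-fold, and limma's adjusted p was 0.156. Without Bailing Capsule replicate 1 it was -1.75 and was called (adjusted p = 0.0359), and with slide as a block it was -1.28 (adjusted p = 0.805).

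Bhmt2, a close paralog that uses S-methylmethionine, had -0.14 on its brighter probe and 0.16 on its second probe. Probe sequences were not used here, so cross-reaction between the paralogs was not tested. Dmgdh, the mitochondrial dimethylglycine dehydrogenase, gave 0.63, 0.53 and 0.28 in diabetic and -0.49, 1.02 and -0.0024 in Bailing Capsule kidneys. Its Bailing Capsule values lay on both sides of the diabetic ones, and its difference was -0.30 (adjusted p = 0.969). The probe of Sardh, which acts on sarcosine in mitochondria, was near background in both groups.

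**Figure D2:**
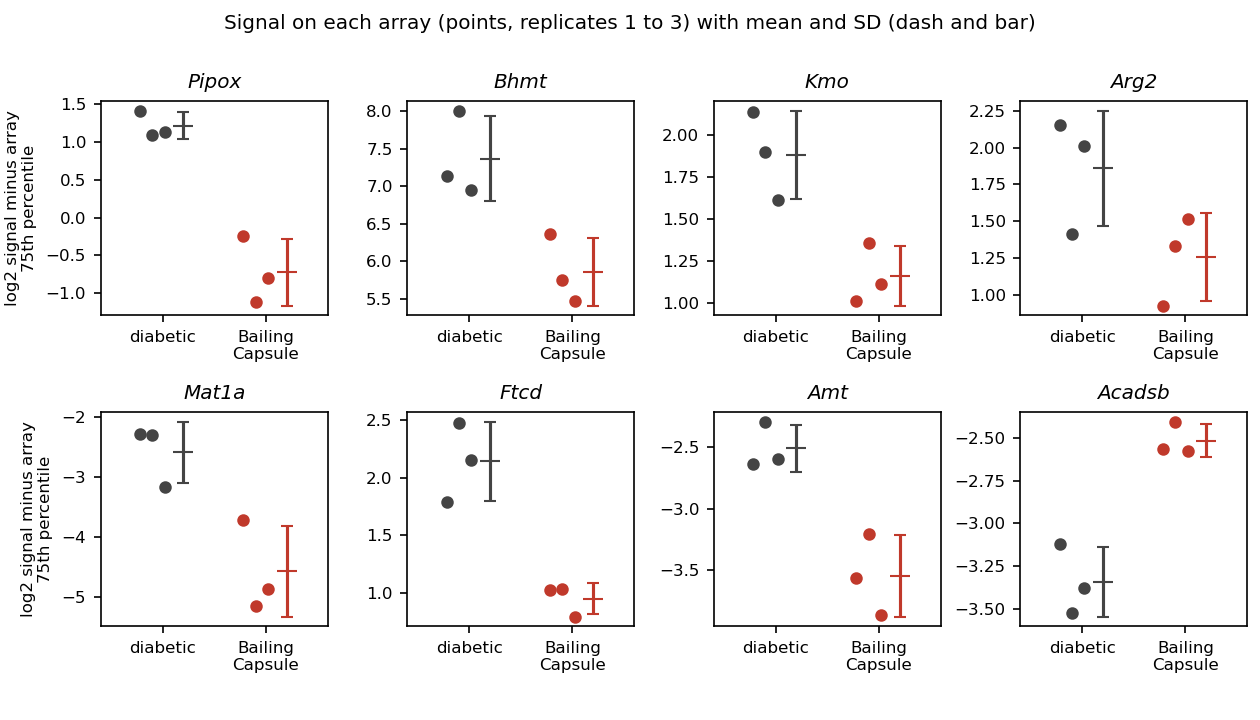
Signal on each array, as log2 intensity minus the array's 75th percentile, for 4 genes of the list (Pipox, Bhmt, Kmo, Arg2) and 4 other amino acid genes (Mat1a, Ftcd, Amt, Acadsb), with a separate vertical scale per gene. Points are replicates 1 to 3 of the diabetic (grey) and Bailing Capsule (red) groups, the dash and bar are mean and SD; groups overlap for Arg2 alone.

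Tryptophan is broken down through kynurenine, and Kmo, kynurenine 3-monooxygenase, sends it toward 3-hydroxykynurenine and NAD precursors. Kmo gave 2.14, 1.90 and 1.61 in diabetic kidneys and 1.02, 1.36 and 1.11 in Bailing Capsule kidneys. The groups were 0.25 apart at their nearest arrays. The difference was -0.72 (SE 0.26), or 1.65-fold, with an unadjusted p of 0.0181 and an adjusted p of 0.452. The neighbouring enzymes of the pathway had differences near 0: Kynu, kynureninase, had -0.09, Haao, which opens the ring of 3-hydroxyanthranilate, had -0.0045, and Acmsd, which diverts its product from NAD synthesis, had 0.03. Their 95% intervals ran from -0.63 to 0.45, from -0.66 to 0.65 and from -0.52 to 0.58. Ddc, the aromatic amino acid decarboxylase that makes dopamine in the tubule, had -0.30 on its brighter probe, which lacked a value on Bailing Capsule replicate 2, and -0.04 on its second probe.

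Proline and arginine metabolism showed no called gene among 7. Arg2, the mitochondrial arginase of kidney, had the largest difference after Pipox, Bhmt and Kmo. It gave 2.15, 1.41 and 2.01 in diabetic and 0.93, 1.33 and 1.52 in Bailing Capsule kidneys, so diabetic replicate 2 lay below the highest Bailing Capsule array. The difference was -0.60 (SE 0.29), with an unadjusted p of 0.0654 in limma. Ass1, argininosuccinate synthase, gave 1.21, 1.52 and 1.45 in diabetic and 1.36, 2.70 and 1.56 in Bailing Capsule kidneys. Bailing Capsule replicate 2 alone stood apart, and the difference was 0.48 (95% interval -0.30 to 1.27). Asl, which releases arginine from argininosuccinate, had -0.06.

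Oat, ornithine aminotransferase, gave 6.12, 6.75 and 6.48 against 6.89, 6.17 and 6.53, with full overlap and a difference of 0.08. Prodh, proline dehydrogenase, had -0.15, Prodh2, which oxidises hydroxyproline, had -0.31, and Aldh4a1, which completes the route from proline to glutamate, had -0.11. A second probe of Aldh4a1 gave 0.23, so its probes differed in sign, neither with a call.

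For ammonia, Glud1, the glutamate dehydrogenase that releases it in mitochondria, gave 6.46, 7.55 and 6.53 in diabetic kidneys and 6.87, 6.20 and 6.25 in Bailing Capsule kidneys. Diabetic replicate 2 was high and the remaining arrays overlapped, with a difference of -0.40 (95% interval -1.17 to 0.36). Glul, glutamine synthetase, which uses ammonia up, gave 4.83, 4.98 and 4.72 against 4.40, 5.55 and 4.93. Its Bailing Capsule arrays spanned the diabetic ones, and the difference was 0.11 (95% interval -0.58 to 0.81).

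Creatine synthesis begins with Gatm, which makes guanidinoacetate in the tubule. Gatm gave 3.84, 4.02 and 3.49 in diabetic and 2.96, 3.90 and 3.20 in Bailing Capsule kidneys, with 9 or 10 spots per array. Bailing Capsule replicate 2 lay among the diabetic values, the difference was -0.43 (SE 0.31), and a second probe gave -0.29. Gamt, which methylates guanidinoacetate to creatine, had 0.05.

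Among genes of glyoxylate and of the oxidases none was called. Hao2, the peroxisomal hydroxy acid oxidase of kidney, gave 6.47, 7.29 and 6.81 against 7.17, 6.28 and 6.78, with overlapping groups and a difference of -0.11. Agxt and Agxt2, aminotransferases that act on glyoxylate, had -0.10 and -0.24. The oxidase genes of D-amino acids, Dao and Ddo, had 0.27 and 0.01. The 95% intervals were wide, from -0.96 to 0.75 for Agxt and from -0.52 to 1.07 for Dao. In the transsulfuration route from homocysteine to cysteine, Cbs had 0.36 and Cth 0.03. Cbs had an unadjusted p under 0.05 with slide as a block and in the authors' deposited values, at 0.86 and 0.58, and was called in neither. Of all features 4.92% and 9.42% had such a p in those settings, and 0.212% and 0.252% were called. In tyrosine breakdown Hpd, Hgd and Fah, which act in that order, had 0.22, -0.33 and -0.16. None of these 10 genes was called.

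The branched-chain and propionyl-CoA genes, 8 of them tested, had 6 positive and 2 negative values, between -0.10 for Mccc1 and 0.36 for Bckdha, and 0 were called or had an unadjusted p under 0.05. Bcat1, the cytosolic aminotransferase, gave -3.59, -4.37 and -3.79 in diabetic and -1.77, -4.84 and -4.54 in Bailing Capsule kidneys. A single array, Bailing Capsule replicate 1, was high while the other two were the lowest of all 6, so the mean difference of 0.20 (SE 0.67) describes neither. Without that array the difference of Bcat1 was -0.77 (limma adjusted p = 0.315). Bcat2, the mitochondrial form, had 0.34. Bckdha and Bckdhb, subunits of the dehydrogenase that commits branched-chain keto acids to oxidation, had 0.36 and -0.0023. Ivd, of leucine breakdown, had 0.22, Pcca, a propionyl-CoA carboxylase subunit, 0.09, and Aldh6a1, of valine breakdown, 0.18.

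**Figure D3:**
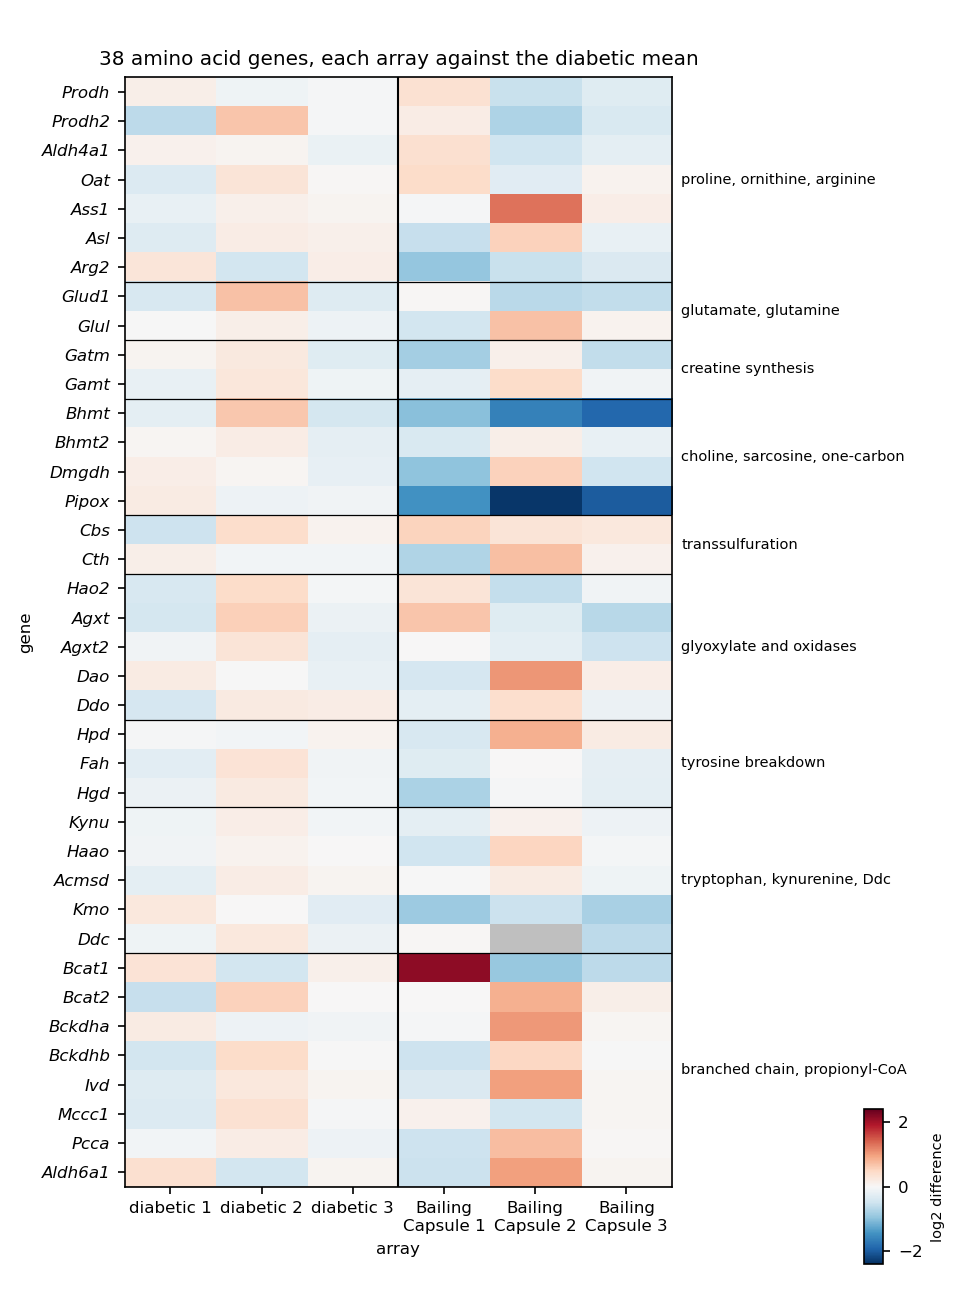
Difference of each array from the diabetic mean of the gene, in log2 units (colour), for the 38 tested genes (rows, grouped by pathway) and 6 arrays (columns); grey marks the missing value of Ddc. The rows of Pipox, Bhmt and Kmo are blue on all 3 Bailing Capsule arrays. Bailing Capsule replicate 2 is the highest array for 17 of 37 genes with all values, a count not made over all features.

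Single arrays were the highest or lowest for many of these genes at once, and the same count was not made over all features. On the first principal component of all features with complete values, 42.3% of the variance, Bailing Capsule replicate 2 was at the low end (-53.3). Diabetic replicate 2 was at the high end (51.5). Among the 37 genes with a value on every array, Bailing Capsule replicate 2 was the highest of the 6 arrays for 17 and the lowest for 8, and Bailing Capsule replicate 1 was the lowest for 19. The 17 genes included Ass1, Asl, Glul, Dao, Hpd and 6 of the 8 branched-chain and propionyl-CoA genes. The 8 included Prodh, Prodh2, Aldh4a1, Glud1, Hao2 and Pipox. Probes of the 17 had a median mean signal of 0.99 and those of the 8 a median of 4.46, which compares the brightness of probes and not levels of genes. After quantile normalization Bailing Capsule replicate 2 was highest for 25 of the 37 and lowest for 3. Median deviations of the 38 genes from the diabetic mean were -0.10, 0.18 and -0.07 on the diabetic arrays and -0.26, 0.13 and -0.13 on the Bailing Capsule arrays. Without Bailing Capsule replicate 2, 28 of 38 values were negative with a median of -0.19, beside 57.9% of all features and a median of -0.05. Then 5 of 38 genes had an unadjusted p under 0.05, beside 7.27% of all features, all of the 5 lower and none called: Pipox, Bhmt, Kmo, Gatm at -0.70 and Dmgdh at -0.72.

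Other enzymes of amino acid metabolism, a list of 69 genes, gave 54 tested genes, and limma called 0 of them. At an unadjusted p under 0.05 there were 9, or 16.7%, 6 lower and 3 higher, where 4.54% of all features were lower and 3% higher. Groups did not overlap for 11, or 20.4%, beside 11.6%. Mat1a, which makes S-adenosylmethionine from methionine, gave -2.30, -2.30 and -3.18 in diabetic and -3.72, -5.14 and -4.86 in Bailing Capsule kidneys. Its groups did not overlap, and the difference was -1.99 (SE 0.40, adjusted p = 0.0990); with normexp background correction and quantile normalization together it was -0.59. Mat1a was called without Bailing Capsule replicate 1 (adjusted p = 0.00474).

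Mat2a, the form of the same enzyme found outside liver, had 0.97 on one probe and 0.99 on the other, with adjusted p-values of 0.321 and 0.221 among single probes in limma. Ftcd, which passes a formimino group from histidine to folate, had -1.19, and Amt, of the glycine cleavage system, had -1.04. Acadsb, of isoleucine breakdown, gave -3.12, -3.52 and -3.38 against -2.56, -2.41 and -2.58. Every Bailing Capsule value of Acadsb was above every diabetic value, with a difference of 0.83 (SE 0.24, adjusted p = 0.303). Pck1, the gluconeogenic enzyme that draws on carbon from glutamine, had -1.09 (adjusted p = 0.418).

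Several genes with lower values, among them Bhmt, Pipox, Mat1a and Ftcd, are also abundant in liver. Of all features 62.1% had negative values, 7.55% had an unadjusted p under 0.05 and 11.6% had groups that did not overlap. Of 12 liver markers Apoa1, Apoa2, Cps1, Otc, Ahsg and Tat were below the filter. The 6 tested all had negative values, with a median of -1.05. They were dim, with diabetic means from -4.18 for Hpx to -1.60 for Apoh. Hpx was well above background on 3 diabetic but only 2 Bailing Capsule arrays. It thus passed the filter through the diabetic group alone, where it was higher, and its difference is no support. For 4 of the 6, Hpx among them, the unadjusted p was under 0.05, and for 3 the groups did not overlap. The summed level of the 6 liver markers, on the linear scale relative to each array's 75th percentile, was 0.747 to 0.846 on diabetic and 0.392 to 0.429 on Bailing Capsule arrays. Of 16 proximal tubule markers 14 had negative values, with a median of -0.29 and 0 called in limma. An unadjusted p under 0.05 was found for 2, or 12.5%, beside 7.55% of all features. The groups did not overlap for 3, or 18.8%, beside 11.6%. The summed proximal tubule levels overlapped, at 806 to 1310 and 663 to 1191. Of 8 adipocyte markers 5 were tested, all negative with a median of -0.87, and the summed levels were 11.8 to 17.7 and 4.04 to 12.2. For 2 of the 5 the unadjusted p was under 0.05, and for 2 the groups did not overlap. Of 8 collecting duct markers 6 had positive values, with a median of 0.33, but the markers went different ways. Slc4a1, Slc26a4, Atp6v1g3 and Foxi1 had 0.52, 1.68, 1.09 and 0.69. Avpr2 and Scnn1g had 0.12 and 0.15, and Aqp2 and Aqp3 had -0.48 and -0.84. The groups did not overlap for 4, or 50%, beside 11.6% of all features. Of these, 3 were higher and 1, Aqp3, was lower. Slc26a4, an anion exchanger of intercalated cells, rose by 1.68 (SE 0.28, limma adjusted p = 0.0457), and it was the only marker called in any of the lists. The summed collecting duct levels overlapped, at 85.6 to 140.1 and 77.0 to 106.2. Marker lists of thick limb and distal tubule, glomerulus and endothelium, leukocyte and adrenal had medians of 0.30, 0.25, 0.08 and 0.04. No tested marker in these lists had an unadjusted p under 0.05. The groups did not overlap for 1 of them, the leukocyte marker Ptprc, at 0.13. The part of these cell types in the difference of Pipox was not tested. In whole kidney, fewer cells of a type and less RNA per cell cannot be told apart.

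The named genes most like Pipox over the 6 arrays, among 10401 with all values, were Il1rl1, Txnip, Mogat2, Gpr83 and Itgb2, with Pearson r of 0.982 to 0.995. Those most like Bhmt were Lancl1, Kcnh1, Hbz, Maoa and Lin28a, at 0.989 to 0.995. Genes with r above 0.95 numbered 61 for Pipox and 81 for Bhmt, and all of these correlations are over the same 6 arrays and include the difference between the groups.

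**Figure D4:**
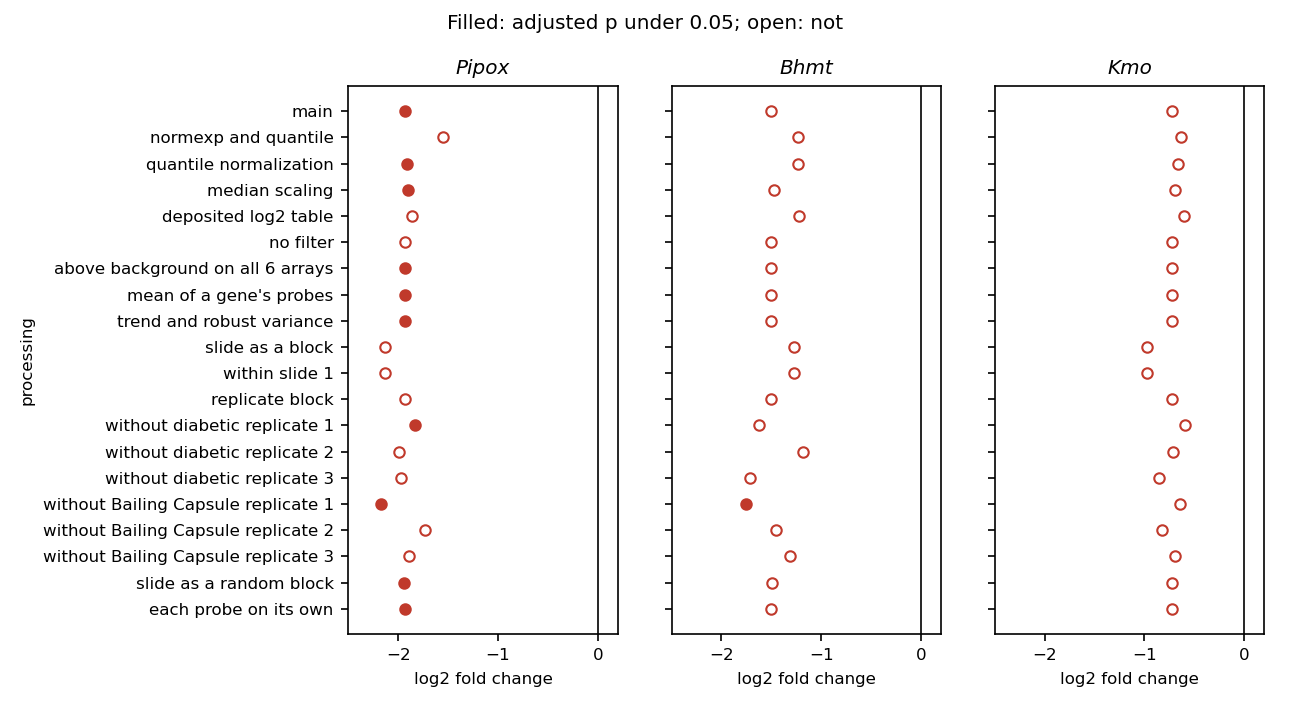
Log2 difference (horizontal axis) of Pipox, Bhmt and Kmo under the main processing and 19 alternatives (rows); filled points have an adjusted p under 0.05. All points lie below 0; Pipox is filled in 9 of the 19 alternatives, Bhmt in 1 and Kmo in 0.

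Under 19 other ways of processing or choosing arrays, the difference of Pipox ran from -2.17 to -1.55 and was called in 9. That of Bhmt ran from -1.75 to -1.18, with a call in 1, and that of Kmo from -0.98 to -0.59, with none and adjusted p-values from 0.31 upward. Unadjusted p-values were under 0.05 in all 19 for Pipox and Bhmt and in 17 for Kmo. The sign was kept in all 19 by 11 of the 38 genes, and 27 changed sign in at least 1. For genes whose groups do not overlap, leaving out arrays or adding a block cannot change the sign.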

How the data were processed

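Kidney RNA of 3 diabetic and 3 Bailing Capsule samples was labelled with Cy3, per the labels. Per the file headers, the deposited scanner files hold spot intensity from Agilent Feature Extraction 11.0.1.1, background-subtracted. The authors' deposited table holds log2 values with a median of 5.05 in every column and was used as an alternative; how it was made is not given in the sources used here.

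Outlier spots were dropped, spots of a probe averaged, and log2 signals scaled to each array's 75th percentile. No spot was saturated. Probes well above background in at least 50% of spots on all 3 arrays of a group were kept, and the brightest kept probe stood for a gene. RefSeq tables (GRCr8) named 18005 of 30367 probes. limma 3.58.1 in R 4.3.3 (lmFit, eBayes, Benjamini-Hochberg) compared the groups and was tested on simulated data. The number of arrays limits the precision. Alternatives were normexp (offset 50) with quantile normalization, quantile normalization or median scaling alone, other filters and probe rules, trend and robust variances, slide and replicate blocks, and leaving out each array.

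Members and lists were chosen with earlier results of these data known. Values per array are given for called genes, those with an unadjusted p under 0.05 or separate groups over 0.5 apart, and 7 fixed genes; values of Arg2, Dmgdh, Mat1a and Acadsb on each array were added after being seen. Of the other amino acid genes, those called, those with the lowest p and Pck1 were named, and 1 gene is not reported here.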

Additional observations from a re-analysis of the deposited data

How the results depend on the processing

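The number of called features was 57, and it was 12 with normexp and quantile normalization together, 6 with no filter, 9 within slide 1, 6 with a replicate block and 17 to 195 when 1 array was left out. The share of calls that were higher was 40.4% and became 55.6% in the deposited values, 73.7% with slide as a block, 55.6% within slide 1, 16.7% with no filter and 25.5% to 52.9% with 1 array left out, the lowest without Bailing Capsule replicate 1. The number of called amino acid genes went from 1 to 0 with normexp and quantile together, the deposited values, no filter, slide as a block, within slide 1 and the replicate block, and was 0 to 2 with 1 array left out. For Pipox the adjusted p-values in those 6 settings were 0.0619, 0.0583, 0.161, 0.0797, 0.354 and 0.143. With no filter 26825 features were tested in place of 17892. Within slide 1 there was 1 diabetic array, assumed to vary like the others. With slide as a block the differences rested on the same diabetic array, because slide 2 held diabetic arrays only. In the other settings the cause was not tested. Genes with an unadjusted p under 0.05 numbered 3, and 2 to 5 with 1 array left out, where the share over all features was 7.55% and 4.67% to 13.6%. Genes with groups that did not overlap numbered 3, then 5 with normexp and quantile together, 6 with quantile normalization alone, 6 in the deposited values, 10 within slide 1 and 3 to 11 with 1 array left out. Over all features that share was 11.6%, then 11.9%, 13%, 14.1%, 45.3% and 15.3% to 32.6%. The count of other amino acid genes called was 0 to 1 in the latter. The median of the 38 genes moved by less than the spread between arrays in every setting, from -0.19 to 0.10. Same-numbered samples did not pair: their deviations correlated at -0.181, -0.140 and 0.0194, and 0 of 6 samples correlated best with their own number. Blocking by slide as a random effect and testing each probe alone were chosen after seeing the data, and Pipox was called in both.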
